A study of Mus musculus with 28 samples.

Results

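De novo lipogenesis is the making of new fatty acids from sugar carbon, and 10 genes of this pathway were followed across the series: Srebf1, Mlxipl, Acly, Acaca, Acacb, Fasn, Me1, Thrsp, Pnpla3 and Gpam. They were chosen by name for their place in the pathway, with earlier results of these data known. All 10 had values in both kinds of table, among 35858 gene symbols in set 2 and 24845 in set 1. The animals were mice with human APOBEC3B fused to a green fluorescent protein under a doxycycline-responsive promoter at the ColA1 locus, derived from KH2 embryonic stem cells. A constitutive CAGs-rtTA3 transgene drove A3B in many tissues, so that A3B was expressed in several organs of the same animal at once. Mice were adult, about a month old, when the diet with 625 ppm doxycycline began.

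Set 2 held livers of 6 A3B mice and 2 controls and pancreases of 6 A3B mice and 2 controls, all labelled with 10 days of treatment. A legend of the study describes its pair of control animals as kept without doxycycline, whereas the labels and the list of mice give these controls the treatment, so the diet of the set 2 controls is uncertain and may differ from that of the A3B mice. Mouse numbers 44, 49, 125, 137, 153, 45 and 168 gave both organs. In set 2 the livers of A3B mice carry the genotype label A3B + CAGS-rtTA and the control livers the label A3B, without the driver. Among the pancreases the labels run partly the other way: A3B pancreases 44 and 137 are labelled A3B and control pancreases 45 and 168 are labelled A3B + CAGS-rtTA. The sample titles, and the study's list of mice, were followed for these 4 samples. Set 1 held livers of 3 A3B mice and 3 controls and lungs of 3 A3B mice and 3 controls, in which mice 70 and 91 gave both organs. The A3B mice of set 1 are labelled A3B + CAGS-rtTA with 14 days of treatment for livers 23 and 28 and 10 days for the others. The controls of set 1 are labelled with 15 days. Control liver 11 carries both transgenes, control lung 87 has the driver alone (CAGs), and the others have A3B alone. The study's list of mice gives doxycycline to control 87 only among the set 1 controls. By that list control liver 11 differs from the A3B livers in diet and not in genotype label, and control lung 87 from the A3B lungs in genotype alone. For the other set 1 controls diet and genotype cannot be told apart. In set 1, which has a row for the transgene, human APOBEC3B lay between 705 and 1705 TPM (transcript abundance per length and library size) in A3B livers and between 0.0928 and 0.144 TPM in control livers, and between 90.6 and 281 TPM in A3B lungs and 0.435 and 0.526 TPM in control lungs. It was not measured here in set 2.

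In the liver the pathway begins with citrate that leaves the mitochondrion and ends with palmitate, which is then desaturated, elongated and esterified to triglyceride. Insulin switches it on through the transcription factor SREBP-1c, a product of Srebf1, and sugar switches it on through ChREBP, the product of Mlxipl. Both factors act on overlapping enzyme genes, so that the pathway rises after feeding and falls in fasting. The 10 genes are treated here in that order: the 2 transcription factors, then the enzymes from citrate to palmitate, then Thrsp, Pnpla3 and Gpam.

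Srebf1 has more than 1 promoter, and the choice between them decides whether the protein is SREBP-1a or SREBP-1c, the form that predominates in normal liver. The windows shown are the 100 bases before 4 annotated starts from RefSeq (build GRCm38.p6), each read 5′ to 3′ on the minus strand. They are shown because the Srebf1 starts are compared later in this report, and because Fasn and Thrsp had large differences in the livers. Capitals mark CCAAT or its reverse complement ATTGG, the box bound by NF-Y, a factor that works beside SREBP at lipogenic promoters.
Srebf1, 1c start (chr11:60210472-60210571): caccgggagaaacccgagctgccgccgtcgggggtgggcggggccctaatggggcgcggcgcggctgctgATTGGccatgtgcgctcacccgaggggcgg
Srebf1, 1a start (chr11:60220628-60220727): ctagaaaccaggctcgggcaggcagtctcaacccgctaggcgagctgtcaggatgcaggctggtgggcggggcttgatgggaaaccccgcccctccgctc
Fasn (chr11:120824548-120824647): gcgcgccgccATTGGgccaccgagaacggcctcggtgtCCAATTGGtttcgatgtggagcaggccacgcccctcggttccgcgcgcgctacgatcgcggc
Thrsp (chr7:97417551-97417650): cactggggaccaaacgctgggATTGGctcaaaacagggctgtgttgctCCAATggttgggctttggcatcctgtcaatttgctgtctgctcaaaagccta

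The Fasn window holds 3 matches, at -90, -62 and -59 from the start, of which the last 2 overlap each other. The Thrsp window holds matches at -79 and -52, the 1c window of Srebf1 holds 1 at -30, and the 1a window holds none. The protein-coding Thrsp transcript used for the counts is annotated with its 5′ end at 97417730, upstream of this RefSeq start. The Thrsp window shown therefore lies inside the span of that transcript. Over the full 250 bases before the start, on both strands, 9 of the 15 promoter windows of the 10 genes hold CCAAT, in 8 of the 10 genes, against 33.8% of all 32851 windows. Acaca and Acly are without it. The Acaca window lies before the start at 84195438, and other annotated Acaca starts, such as that at 84173122, were not searched. CACGTG, the palindromic E-box, is in 1 of the 15 windows, an Mlxipl start, against 6.02% of all windows. The sterol element TCACNCCAC is in 1 of the 15, another Mlxipl start, against 1.05%. GGGCGG, the core of an Sp1 site, is in 7 of the 15, against 32.7%. Neither CACGTG nor TCACNCCAC was found in the windows of Srebf1, Fasn or Thrsp, which says only that these letters are not there.

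The livers of set 2 were compared first, to ask which of these genes differed between A3B mice and controls. Every one of the 10 genes had a negative fold change, and 4 of them passed the test: Srebf1, Fasn, Me1 and Mlxipl. The other 6 did not pass it, and among these Acaca, Thrsp and Acly had adjusted p-values between 0.0581 and 0.0735. Of all 17365 genes tested, 2.41% were called lower. The median log2 fold change of the 10 genes was -1.60, beside 0.21 over all genes tested.

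Srebf1, on the minus strand of chromosome 11 (chr11:60199089-60222581 in mm10), was at 225 TPM in control liver 45 and 69.4 TPM in control liver 168. In the A3B livers it was at 26.8 TPM (44), 21.2 TPM (125), 18.3 TPM (49), 9.96 TPM (153), 8.97 TPM (137) and 8.71 TPM (48). All A3B livers thus lay below both controls, although the controls lay far apart. The fold change was -3.65 on the log2 scale (SE 0.38), 12.6-fold lower, with an adjusted p of 0.00387 in edgeR's quasi-likelihood test. Mlxipl, on the plus strand of chromosome 5 (chr5:135089890-135138382), was at 174 and 92.9 TPM in controls 45 and 168. Its A3B values were 75.5 TPM (125), 45.9 TPM (44), 41.7 TPM (48), 39.4 TPM (153), 28.4 TPM (137) and 14.9 TPM (49). These also lay below both controls, with a log2 fold change of -2.11 (SE 0.48, edgeR adjusted p = 0.0436).

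Acly splits cytosolic citrate into acetyl-CoA and oxaloacetate. Its values were 156 and 42.3 TPM in controls 45 and 168, and 63.8 TPM (153), 61.5 TPM (44), 41.1 TPM (137), 35.2 TPM (125), 28.4 TPM (49) and 21.8 TPM (48) in A3B livers. Control 168 lay inside the A3B range, and the log2 fold change of -1.66 (SE 0.46) missed the threshold. Acaca and Acacb encode the 2 acetyl-CoA carboxylases: the product of Acaca makes malonyl-CoA for synthesis in the cytosol, and that of Acacb makes malonyl-CoA at the mitochondrion, where it restrains fatty acid entry. Acaca was at 36.9 and 11.1 TPM in controls 45 and 168 and between 5.14 and 17.6 TPM in A3B livers, with a log2 fold change of -1.47 (SE 0.37). Acacb was at 33.3 and 8.58 TPM in the same controls and between 4.42 and 28.7 TPM in A3B livers, with a log2 fold change of -0.97 (SE 0.64, edgeR adjusted p = 0.393). For both carboxylases the groups overlapped, with control 168 inside the A3B range.

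Fasn encodes fatty acid synthase, which builds palmitate from malonyl-CoA. It was at 223 TPM in control liver 45 and 49.7 TPM in control liver 168. In the A3B livers it was at 29.3 TPM (125), 26.6 TPM (44), 20.4 TPM (48), 11.3 TPM (153), 10.6 TPM (49) and 10.2 TPM (137). No A3B liver reached the lower control, and the log2 fold change was -3.34 (SE 0.60, edgeR adjusted p = 0.0209). Me1, the cytosolic malic enzyme, supplies NADPH for the chain. Its controls lay close together, at 103 and 87.0 TPM, and its A3B livers at 58.6 TPM (49), 54.8 TPM (125), 51.0 TPM (44), 46.6 TPM (137), 22.7 TPM (48) and 22.4 TPM (153). The log2 fold change was -1.54 (SE 0.35, edgeR adjusted p = 0.0430).

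Thrsp, also called Spot 14, is a small protein that rises with the lipogenic enzymes. It had the widest spread of the 10: 881 and 167 TPM in controls 45 and 168, and 127 TPM (125), 66.7 TPM (44), 48.3 TPM (137), 33.0 TPM (153), 18.1 TPM (48) and 2.22 TPM (49) in A3B livers. All A3B livers lay below both controls, and the log2 fold change of -3.70 was the largest in size, but its SE was 0.96 and its edgeR adjusted p 0.0644. Pnpla3 encodes a lipid droplet protein under the control of SREBP-1c and ChREBP. It was low throughout, at 9.80 and 0.942 TPM in controls 45 and 168 and between 0.480 and 5.48 TPM in A3B livers, on 25 to 576 estimated counts per library. Gpam, which begins triglyceride synthesis at the outer mitochondrial membrane, was at 114 and 45.0 TPM in those controls and between 23.3 and 90.6 TPM in A3B livers. Neither differed beyond the spread, with log2 fold changes of -1.20 (SE 0.92) for Pnpla3 and -0.65 (SE 0.44) for Gpam.

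**Figure D1:**
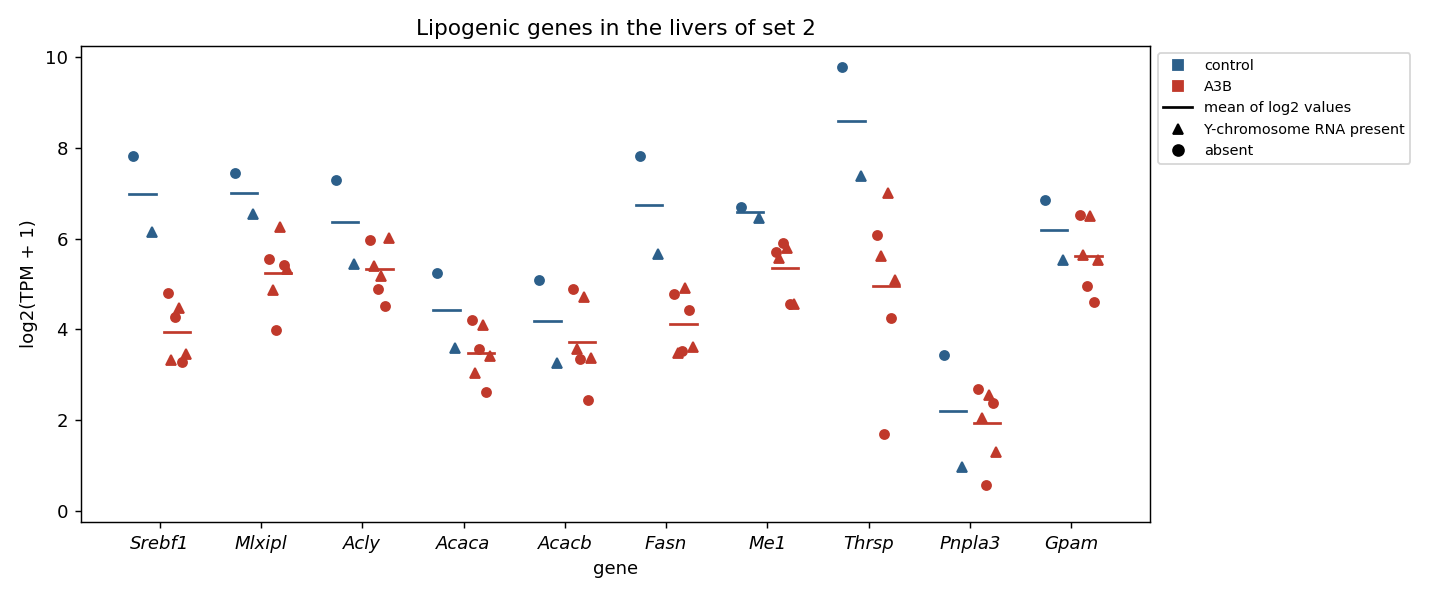
Level of each gene in the livers of set 2, as log2(TPM + 1) on the vertical axis; each point is 1 liver (blue, 2 controls; red, 6 A3B mice), triangles mark livers with Y-chromosome RNA, circles those without, and lines the means of the log2 values. For Srebf1, Mlxipl, Fasn, Me1 and Thrsp every red point lies below both blue points, and the upper blue point is control 45 for all 10 genes.

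For 5 of the 10 genes every A3B liver lay below both controls in TPM, which held for 5.42% of all genes tested. The 2 controls were ordered alike: control 45 was the higher for all 10 genes. They also differed in Y-linked RNA (Ddx3y and Eif2s3y), absent in control 45 and present in control 168. Among livers without it, the 3 A3B livers lay below control 45 for 10 of 10 genes. Among livers with it, the 3 A3B livers lay below control 168 for 5 genes (Srebf1, Mlxipl, Fasn, Me1 and Thrsp), above it for 3 (Acacb, Pnpla3 and Gpam), and on both sides for Acly and Acaca. Each side holds 1 control, and the share over all genes was not counted, so these placements are a description only. With Y-linked RNA as a covariate 2 genes passed, Srebf1 and Fasn, while Me1 (-1.54, edgeR adjusted p = 0.0566) and Mlxipl (-2.13, adjusted p = 0.0586) kept folds close to those above. Without control 45 only Srebf1 passed (log2 fold change -2.90). The log2 fold change of Fasn was then -1.87 (edgeR adjusted p = 0.302), and those of Thrsp, Acly and Acaca were -2.35, -0.70 and -0.77. Scaled by totals, which moved the median log2 fold change over all genes from 0.21 to 0.68, 3 genes passed and Me1 did not (-1.07, adjusted p = 0.0956). Without control 168 2 genes passed. In the fits without 1 control, 0.346% (without 45) and 0.378% (without 168) of all genes tested were called lower. The count was 2 without A3B liver 44 and 1 without A3B liver 137, where the shares were 1.01% and 0.773%. In the fits that leave a single control, that sample is assumed to vary as the A3B livers do. Srebf1 passed in 8 of 8 fits that left out 1 liver, Fasn in 6, Me1 in 4 and Mlxipl in 3. A3B liver 48 was the lowest A3B liver for 5 genes and liver 49 for 3.

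Total estimated counts were 65161064 to 98780481 in the A3B livers and 104834346 to 118976013 in the control livers. The 9 hepatocyte markers in the table summed to between 33507 and 76104 TPM in A3B livers and between 88041 and 140483 TPM in controls. Most of that sum was Alb, the gene for albumin, at 19353 to 44124 TPM in A3B livers and 54669 to 107806 TPM in controls. Ttr, the gene for transthyretin, at 1951 to 5418 TPM against 7530 to 7935 TPM, and Cyp2e1, a cytochrome P450, at 437 to 2710 TPM against 4846 to 6007 TPM, also lay below both controls in every A3B liver. Other members had higher values in A3B livers, with overlapping groups: Hnf4a, a hepatocyte transcription factor, lay at 229.7 to 596 TPM in A3B livers and 182 to 234 TPM in controls, and Tat, a tyrosine-degrading enzyme, at 1077 to 7498 TPM and 435 to 1341 TPM. None of the 9 passed the test, and none was below 1 TPM in every liver of a group. The 10 adipocyte markers summed to 45.1 to 291 TPM in A3B livers and 21.4 to 32.9 TPM in controls. The A3B sum was mostly Cidec, Fabp4, Lipe and Pparg, with Cidec at 17.7 to 176 TPM against 4.57 to 5.49 TPM, while Adipoq reached at most 1.51 TPM, Plin1 and Retn stayed below 1 TPM and Lep was at 0 in every liver of set 2. Fewer hepatocytes and less RNA per hepatocyte cannot be told apart in such bulk samples. The part of these marker levels in the differences of the 10 genes was not tested.

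The 2 protein-coding Srebf1 transcripts that start near the 1c and 1a windows shown above have their 5′ ends at 60210465 and 60220604 on chromosome 11, and are called here the 1c and the 1a transcript. The 1c transcript was at 83.9 and 22.5 TPM in control livers 45 and 168. In A3B livers it was at 5.57 TPM (44), 2.84 TPM (49), 1.76 TPM (137), 1.67 TPM (153), 1.54 TPM (125) and 0.0525 TPM (48). The 1a transcript was at 66.8 and 26.1 TPM in the controls and between 1.68 and 12.8 TPM in A3B livers. Both transcripts were thus below both controls in every A3B liver.

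As a share of the TPM of these 2 transcripts, the 1c transcript took 55.7% and 46.3% in control livers 45 and 168. In control 168 the 1a transcript was thus the higher, although 1c is the form named above as predominant in normal liver. In A3B livers it took 30.3% (44), 26.3% (137), 21.8% (49), 20.8% (153), 13.7% (125) and 3.03% (48). The 6 A3B livers had a mean share of 19.3% ± 9.74 (SD) and the 2 controls one of 51.0% ± 6.64 (SD), without overlap. The difference was -31.7 percentage points, with p = 0.0357 in a two-sided exact permutation test, which can give no smaller value for 6 against 2 samples. Without either control the test could not reach the threshold. The shares are kallisto's division of reads among transcripts that have most exons in common, and the 1c transcript is annotated with a shorter 3′ end (3177 against 4299 bases). The 2 transcripts held 53.0% to 80.3% of the gene's TPM in 7 of the 8 livers and 19.9% in A3B liver 48, where 458 estimated counts stood behind the share. In the pancreas the same share was 0% and 13.8% in controls 45 and 168 and between 4.74% and 20.9% in A3B mice, so that the groups overlapped (exact permutation p = 0.429). The 0% rests on 439 estimated counts, which allow up to 0.684%, counting error only.

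**Figure D2:**
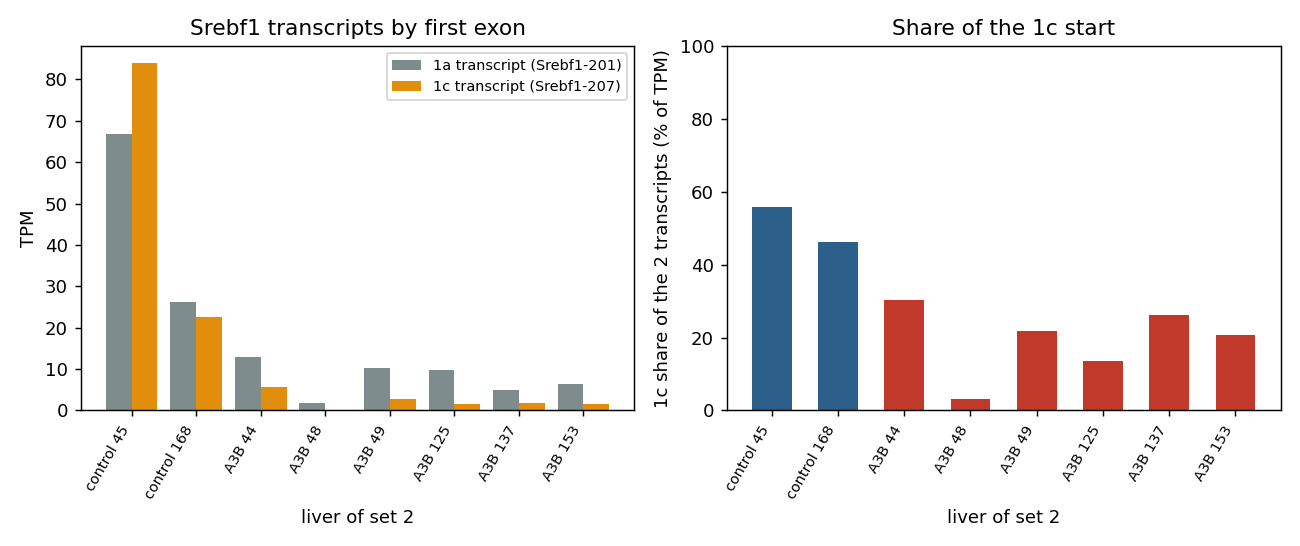
Left, TPM of the 1a transcript (grey) and the 1c transcript (orange) of Srebf1 in each liver of set 2; right, the 1c transcript as a percentage of the summed TPM of both, with controls in blue and A3B mice in red. The share is 55.7% and 46.3% in the controls and at most 30.3% in the 6 A3B livers.

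Acacb also has transcripts from 2 starts, and these were looked at after their values had been seen. The transcript with its 5′ end at 114165518 was at 14.8 and 3.13 TPM in control livers 45 and 168 and between 1.32 and 6.05 TPM in 5 A3B livers, with less than 1 estimated count in A3B liver 48. The transcript from the start at 114146535, upstream of it, was at 15.9 and 3.04 TPM in those controls and between 0.673 and 18.0 TPM in A3B livers. In the controls the 2 transcripts were close to each other, whereas in each of the 6 A3B livers the upstream one was the higher. No test was made of this difference.

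The 6 lists of neighbouring genes were set beside the 10 in the livers of set 2, and each was described by its counts. Of 12 regulators of SREBP-1 and ChREBP, 2 were called lower and none higher: Insig1, the sterol-regulated anchor that keeps SREBP in the endoplasmic reticulum and is itself an SREBP target, and Srebf2, which encodes the cholesterol-directed SREBP-2. Insig1 was at 97.5 to 146 TPM in controls and 23.9 to 56.0 TPM in A3B livers (log2 fold change -2.14, SE 0.39, edgeR adjusted p = 0.0216). Srebf2 was at 20.6 to 29.4 TPM in controls and 9.86 to 17.7 TPM in A3B livers (log2 fold change -1.53, SE 0.23, edgeR adjusted p = 0.0100). Of 14 genes of insulin and AMPK signalling none was called in either direction by edgeR (5 had an unadjusted p under 0.05), and their median log2 fold change was 0.02.

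Of 14 genes that supply carbon and NADPH, 4 were called lower and none higher, with a median log2 fold change of -1.13. Pklr, the liver pyruvate kinase and a ChREBP target, was at 113 to 266 TPM in controls and 17.3 to 69.3 TPM in A3B livers. Slc25a1, the carrier that exports mitochondrial citrate, was at 185 to 238 TPM in controls and 45.5 to 109 TPM in A3B livers. Mid1ip1, a partner of Thrsp that helps carboxylase filaments form, was at 33.8 to 51.6 TPM in controls and 10.0 to 26.7 TPM in A3B livers. Their log2 fold changes were -2.51, -1.75 and -2.0, with edgeR adjusted p-values of 0.0204, 0.0100 and 0.00512. Of 7 desaturases and elongases 5 were called lower and none higher, with a median log2 fold change of -3.12. Fads1 and Fads2, which desaturate polyunsaturated chains, had log2 fold changes of -3.59 and -3.12, and Scd1, which desaturates stearate, one of -7.92.

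Of 17 genes of triglyceride assembly, 1 was called in each direction. Gpat3, a glycerol phosphate acyltransferase of the endoplasmic reticulum that does the same step as Gpam, was higher, at 2.84 to 5.73 TPM in controls and 19.2 to 80.4 TPM in A3B livers (log2 fold change 3.27, SE 0.53, edgeR adjusted p = 0.0148). Acsl5, an acyl-CoA synthetase, was lower (log2 fold change -1.53). Of 17 genes of lipid droplets, lipolysis and secretion, 3 were called higher and 1 lower, where 1.26% of all genes tested were called higher. The higher ones were the droplet coat genes Plin4 (log2 fold change 4.94) and Plin5 (2.23) and the lipase inhibitor Hilpda (4.31), and the lower one was the lipase gene Mgll (-1.25). These lists were described by counts and were not tested as groups.

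Over the 8 livers of set 2, the 5 non-member genes whose level ran most closely with the mean of the 10 were, of 6835 genes compared, Pklr, Itih2, Papss2, Ugt1a5 and Naa35, with Pearson's r of 0.938, 0.938, 0.938, 0.937 and 0.925. The livers share their group difference and the height of control 45, so these values are a description. Over the 6 livers of set 1 the same measure was 0.936 for Pklr, 0.822 for Papss2, 0.590 for Itih2 and 0.444 for Naa35, and Ugt1a5 was not measured there. Among the 10 genes themselves, Fasn ran most closely with the mean of the other 9 (r = 0.977 in set 2 and 0.966 in set 1), and Pnpla3 least closely (0.655 and 0.393).

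The livers of set 1 are other animals, measured by another pipeline as TPM. All 10 genes again had negative fold changes, and 2 of them, Srebf1 and Fasn, passed limma's test on log2(TPM + 1). Of all 11507 genes tested, 1.86% were called lower. The median log2 fold change of the 10 genes was -1.05, beside 0.39 over all genes tested. Fold changes on this scale understate the change of low genes.

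Srebf1 was at 64.1, 53.1 and 38.1 TPM in control livers 11, 92 and 91 and at 14.8, 10.9 and 6.47 TPM in A3B livers 28, 70 and 23. The groups did not overlap, and the log2 fold change was -2.20 (SE 0.38, limma adjusted p = 0.0267). Fasn was at 467, 311 and 197 TPM in controls 92, 11 and 91 and at 107, 46.3 and 31.4 TPM in A3B livers 70, 23 and 28. Again every A3B liver lay below every control, with a log2 fold change of -2.48 (SE 0.53, limma adjusted p = 0.0397). Mlxipl was at 286, 132 and 92.1 TPM in controls and 71.2, 64.4 and 58.0 TPM in A3B livers, and Me1 at 50.2, 45.0 and 43.8 TPM in controls and 41.0, 24.0 and 15.6 TPM in A3B livers. These 2 genes did not overlap either but missed the threshold, with limma adjusted p-values of 0.108 and 0.167.

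For the other 6 genes the groups overlapped. Thrsp was at 256, 88.3 and 53.8 TPM in controls and at 89.0 TPM in A3B liver 70, against 9.64 and 9.19 TPM in A3B livers 23 and 28. Liver 70 was the highest A3B liver for 7 of the 10 genes, and it is the one labelled with 10 days. Pnpla3 was at 62.1 and 20.02 TPM in controls 92 and 91 but at 2.66 TPM in control 11, below the 3 A3B livers, which lay between 3.58 and 3.69 TPM. The log2 fold changes were -2.34 (SE 0.93) for Thrsp and -1.86 (SE 0.91) for Pnpla3. Acly lay between 119 and 371 TPM in A3B livers and 224 and 539.7 TPM in controls, with a log2 fold change of -0.77 (SE 0.51). Acaca, Acacb and Gpam had log2 fold changes of -0.30, -0.37 and -0.13, each within 1 standard error or close to it.

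In the livers of set 1 non-overlap below the controls held for 4 of the 10 genes and for 10.3% of all genes tested. Srebf1, Mlxipl, Fasn and Me1 were the 4, and all 4 were also below both controls in set 2. The calls rest on few animals. Srebf1 lost its call without control 91, control 92 or A3B liver 23 (limma adjusted p from 0.0773 to 0.137), with log2 fold changes from -2.40 to -1.91 in those fits, and Fasn kept its call only without A3B liver 70. The count was 0 without control 91, without control 92 and without A3B liver 23, where 0%, 0.0172% and 0.104% of all genes tested were called lower, so that almost no gene was called. It was 1 without A3B liver 28 (Srebf1), 2 without control liver 11 (Srebf1 and Pnpla3) and 3 without A3B liver 70 (Srebf1, Fasn and Thrsp). In those fits 2%, 1.74% and 4.47% of all genes tested were called lower. The 9 hepatocyte markers summed to 5824 to 8549 TPM in A3B livers and 9526 to 10929 TPM in controls, and none passed the test. Ttr, Apoa1, Fga and Cyp2e1 lay below all controls in every A3B liver, with Cyp2e1 at 99.9 to 1617 TPM against 2252 to 2369 TPM, while Hnf4a and Tat reached higher values in A3B livers than in controls, with overlap. The 10 adipocyte markers summed to 145 to 744 TPM in A3B livers and 25.9 to 29.0 TPM in controls, mostly Cidec and Fabp4. Cidec was called higher, while Adipoq and Plin1 were below 1 TPM and Lep was at 0 in every liver of set 1. The 8 alveolar type II markers, which belong to lung, summed to 255 to 978 TPM in A3B livers and 710 to 1928 TPM in control livers. Nearly all of that was Abca3, while Sftpc, Sftpb and Lamp3, which define these cells, were below 1 TPM in every liver of set 1 and Sftpa1 was higher in the A3B livers (3.17 to 43.9 TPM) than in controls (0.283 to 0.813 TPM). The part of these levels in the result was not tested.

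The neighbouring lists had fewer calls in set 1, where 6.07% of all genes tested were called higher. Insig1 was lower among the 12 regulators (log2 fold change -2.36, limma adjusted p = 0.0371). Prkab2, a subunit of AMPK, was higher among the 14 signalling genes, at 3.81 to 12.3 TPM in A3B livers and 0.608 to 1.55 TPM in controls. Slc25a1 was lower among 13 supply genes tested, at 122 to 125 TPM in A3B livers and 317 to 370.3 TPM in controls (log2 fold change -1.44, limma adjusted p = 0.0303). Of 7 desaturases and elongases 3 were lower. Gpat3 was higher at 16.9 to 24.7 TPM in A3B livers and 2.86 to 5.01 TPM in controls (log2 fold change 2.27, limma adjusted p = 0.0179). Acsl3, an acyl-CoA synthetase, was lower. Of 15 droplet genes tested, Cidec, Plin4 and Hilpda were higher and Cideb was lower.

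The lungs of set 1 show the same genes in an organ with lipogenesis of its own, where alveolar type II cells make surfactant lipid. None of the 10 genes passed limma's test there, although 36.8% of all 13651 genes tested were called in one direction or the other. Only Acaca had an unadjusted p under the threshold (0.029, limma adjusted p = 0.0688). Acaca was at 5.14, 4.65 and 4.34 TPM in A3B lungs 70, 69 and 74 and at 3.94, 3.75 and 3.14 TPM in control lungs 88, 87 and 91, a difference without overlap and of 0.31 on the log2 scale (SE 0.11). Srebf1 was at 23.9 to 30.6 TPM in A3B lungs and 20.7 to 26.9 TPM in controls, and Fasn at 239 to 319 TPM and 212 to 298 TPM. For both the groups overlapped, with log2 fold changes of 0.22 (SE 0.14) and 0.18 (SE 0.17). Mlxipl, Acly, Acacb and Gpam had log2 fold changes of 0.08, 0.14, 0.30 and 0.17, and Me1, Thrsp and Pnpla3 of -0.16, -0.54 and -0.39. The groups overlapped for each of these genes. The median log2 fold change of the 10 genes was 0.15, beside -0.06 over all genes tested.

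Thrsp was the most variable of the 10 genes in lung, at 19.4 TPM in A3B lung 70 and 4.05 and 1.47 TPM in A3B lungs 74 and 69, against 6.47 to 12.7 TPM in controls. A3B lung 70 was the highest A3B lung for all 10 genes, and control lung 88 was the highest control for 8. Adipocyte markers summed to 216 to 1130 TPM in A3B lungs and 128 to 344 TPM in controls, and their part in this order was not tested. In the neighbouring lists the calls stood beside 16.1% of all genes called higher and 20.8% called lower. Of 14 signalling genes 6 were called higher and 1 lower, of 14 triglyceride assembly genes 5 higher and 2 lower, and of 15 genes of the lipid droplet, lipolysis and secretion 2 higher and 2 lower. Irs2, which relays the insulin signal, was higher at 257 to 355 TPM in A3B lungs and 36.0 to 66.2 TPM in controls (log2 fold change 2.58, SE 0.23, limma adjusted p = 0.00221), and Irs1, with the same role, was lower (log2 fold change -0.90, limma adjusted p = 0.00647). Lpin1, a phosphatidate phosphatase, was higher (log2 fold change 2.50, limma adjusted p = 0.00173) and G0s2, an inhibitor of the main triglyceride lipase, was lower (log2 fold change -1.12, limma adjusted p = 0.00173).

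**Figure D3:**
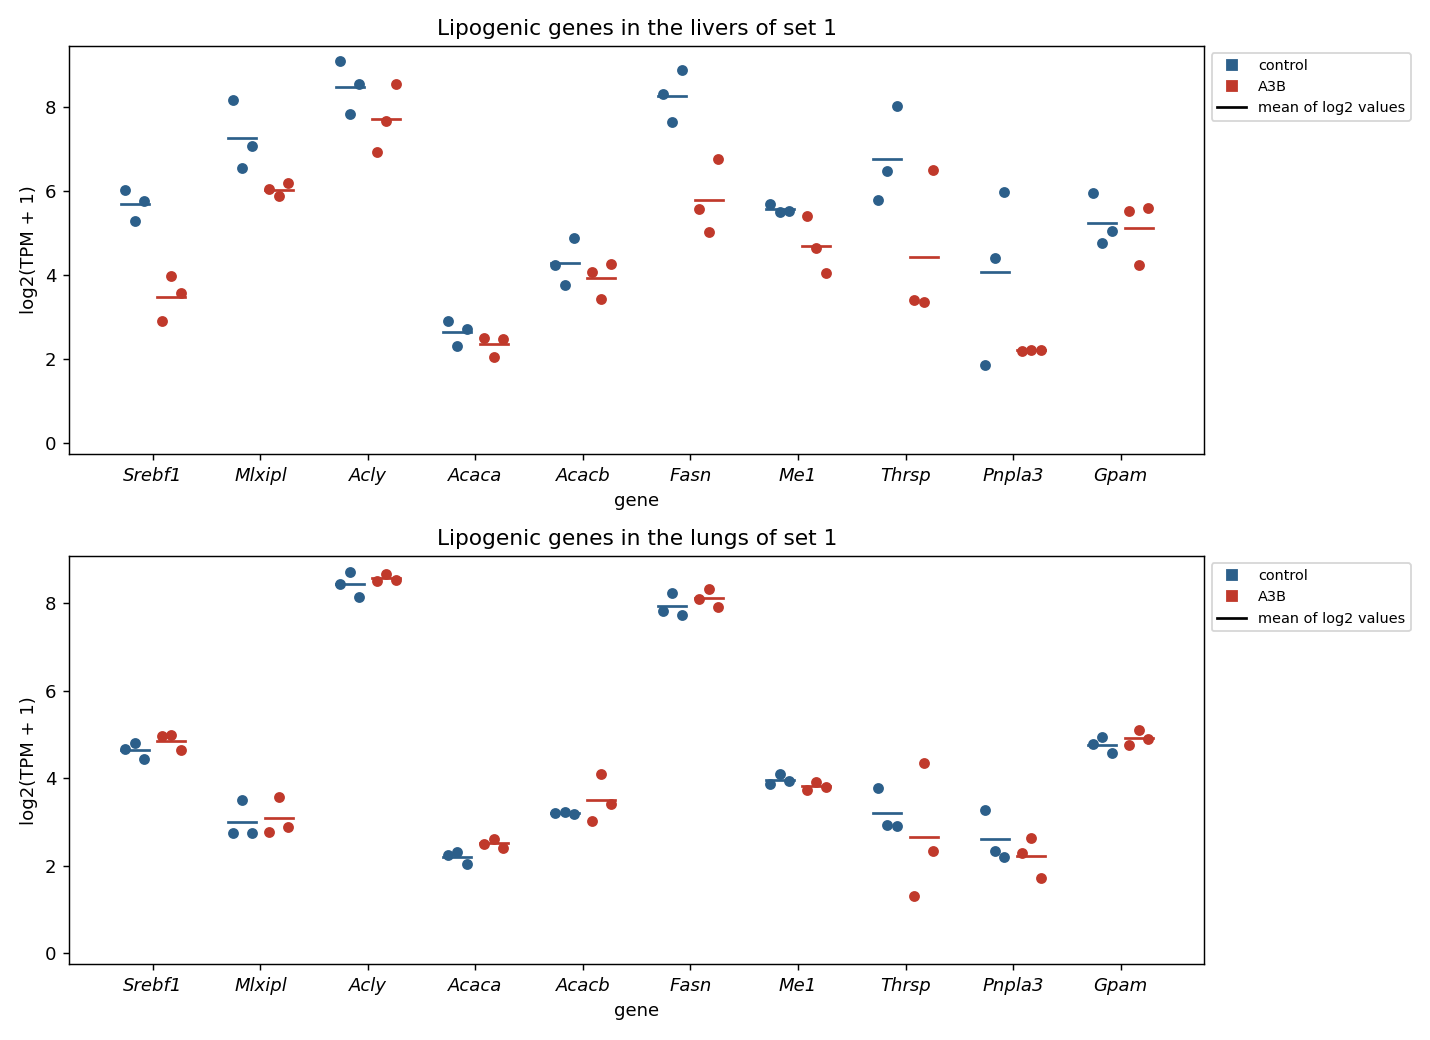
Level of each gene in the livers (top) and lungs (bottom) of set 1, as log2(TPM + 1); each point is 1 sample, with 3 controls in blue and 3 A3B mice in red, and lines mark the means of the log2 values. In liver the red points lie below the blue ones for Srebf1, Mlxipl, Fasn and Me1, and in lung the 2 colours overlap for all genes but Acaca.

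The exocrine cells of the pancreas devote much of their RNA to digestive enzymes. The 10 most abundant genes took 59.7% to 62.4% of the counts in control pancreases and 12.1% to 20.6% in A3B pancreases. The 10 acinar markers summed to 58701 to 156443 TPM in A3B pancreases and 289018 to 300934 TPM in controls, and 9 of them were called lower. The sum was led by Cela1 in controls, and not all members had lower levels: Ctrb1, a chymotrypsinogen gene, lay at 35180 to 113874 TPM in A3B pancreases and 24605 to 25751 TPM in controls, and Ptf1a, an acinar transcription factor, at 19.8 to 38.8 TPM and 12.0 to 16.9 TPM. TMM scaling, which sets the levels of most genes equal, gave factors of 0.21 and 0.443 to the controls and 1.30 to 1.79 to the A3B pancreases. When counts were scaled by their totals in place of TMM, the median log2 fold change over all genes moved from 0.09 to 2.29. Changes are therefore given relative to the other genes, from TMM. For the 10 genes the direction under totals is stated where it turns, and for neighbouring genes called lower the TPM is given.

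On the TMM scale 1 of the 10 genes was called higher, Me1, and 3 were called lower, Thrsp, Pnpla3 and Mlxipl. Of all 19123 genes tested, 17.0% were called higher and 14.9% lower. The median log2 fold change of the 10 genes was -0.31, beside 0.09 over all genes. Scaled by totals, 6 genes were called higher and none lower, where 70.5% of all genes tested were called higher and 1.10% lower, and against that scale's median of 2.29 the median of the 10 genes was 1.78. In TPM, 6 of the 10 genes (Srebf1, Acly, Acaca, Acacb, Me1 and Gpam) were above both controls in every A3B pancreas, as were 70.8% of all genes tested. Without control 168, which leaves 1 control, the median log2 fold change of the 10 genes was -0.05, beside 0.31 over all genes. Without A3B pancreas 49 or 53 the count of higher genes was 2, with Acacb as the second. In those fits 15.9% and 15.4% of all genes tested were called higher.

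Me1 was at 42.3 TPM (53), 37.4 TPM (44), 26.4 TPM (49), 23.7 TPM (137), 22.1 TPM (153) and 21.6 TPM (125) in A3B pancreases and at 3.06 and 0.718 TPM in controls 168 and 45. The groups were far apart, and the log2 fold change was 1.79 (SE 0.35, edgeR adjusted p = 0.00349). It passed in 8 of 8 fits that left out 1 pancreas. Thrsp was at 8.74 to 22.4 TPM in A3B pancreases and at 32.9 and 5.49 TPM in controls 168 and 45, which lie on either side of the A3B range. Its log2 fold change was -2.16 (SE 0.36, edgeR adjusted p = 0.00187) with TMM, -0.16 with totals, and 0.19 in limma on log2(TPM + 1).

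Pnpla3 was at 3.20 TPM in control pancreas 168 and 0.0814 TPM in control 45. In A3B pancreases it was at 0.914 TPM (49), 0.30 TPM (44), 0.231 TPM (153), 0.211 TPM (53), 0.101 TPM (137) and 0 TPM (125). At most 141 estimated counts stood behind any of these values, and 0 in A3B pancreas 125, which allows up to 3 counts. The log2 fold change of -4.05 (SE 1.15, edgeR adjusted p = 0.0236) rests on control 168: without it, it was -1.92 (edgeR adjusted p = 0.40). Without A3B pancreases 44 and 137, whose genotype labels go against their titles, it was -3.97 (adjusted p = 0.0667). Mlxipl was at 1.26 to 6.10 TPM in A3B pancreases and 3.39 and 1.04 TPM in controls 168 and 45, and the ranges overlap. Its log2 fold change was -1.64 (SE 0.50, edgeR adjusted p = 0.0303) with TMM and 0.48 with totals, and the call was lost without A3B pancreas 44 or 53 or either control (adjusted p from 0.0527 to 0.171).

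The remaining genes did not pass the test on the TMM scale. Srebf1 was at 18.3 to 41.0 TPM in A3B pancreases and 5.93 and 3.57 TPM in controls (log2 fold change 0.36, SE 0.28), and Acly at 40.0 to 62.4 TPM against 18.2 and 6.46 TPM (0.15, SE 0.25). Acacb was at 12.0 to 29.4 TPM against 2.62 and 1.55 TPM (1.05, SE 0.38, edgeR adjusted p = 0.0592). Fasn was at 12.9 to 41.4 TPM against 18.4 and 5.83 TPM (-0.62, SE 0.47), Acaca at 2.63 to 5.29 TPM against 2.22 and 0.543 TPM (-0.67, SE 0.30) and Gpam at 9.78 to 17.4 TPM against 4.32 and 1.62 TPM (-0.01, SE 0.25). For Fasn, Acaca and Gpam the sign was positive under totals. Control 168 was the higher control for all 10 genes in the pancreas, whereas control 45 was the higher in the liver.

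The calls in the neighbouring lists and cell markers of the pancreas stand beside 17.0% of all genes tested called higher and 14.9% called lower. Of 14 supply genes 5 were called higher and none lower. Idh1 and Pgd, which make cytosolic NADPH as Me1 does, had log2 fold changes of 1.89 (SE 0.28) and 1.45 (SE 0.22), and G6pdx, the first enzyme of the pentose phosphate path, 1.60 (SE 0.28). Of 14 signalling genes 4 were called higher, among them the AMPK subunits Prkaa1 (1.38) and Prkab1 (1.40) and the insulin-regulated kinase Gsk3b (1.28). Of 12 regulators Rxra was called higher (1.57) and Insig1 and Usf1 lower. Insig1 had a log2 fold change of -1.53 (SE 0.26, edgeR adjusted p = 0.00175), while its TPM was 20.9 to 30.0 in A3B pancreases and 13.7 to 16.7 in controls. Usf1 had one of -0.69, while its TPM was 54.9 to 85.2 in A3B pancreases and 14.5 to 28.9 in controls. For both genes every A3B pancreas was thus above both controls in TPM, and the call of lower holds relative to the other genes. Of 17 triglyceride assembly genes 6 were called higher and 1 lower, Dgat1 (-1.16). In TPM the groups overlapped for Dgat1, with a median of 18.3 in A3B pancreases and 9.76 in controls. Of 17 droplet, lipolysis and secretion genes 6 were called higher and 2 lower, G0s2 (-1.54) and Tm6sf2 (-1.40). These 2 also overlapped in TPM, with medians of 8.43 and 3.86 in A3B pancreases and 6.30 and 3.39 in controls. The droplet coat gene Plin2 was higher (3.70, SE 0.61, edgeR adjusted p = 0.00163), at 178 to 563 TPM against 1.55 to 9.87 TPM. Markers of other cells moved as well: 4 of 6 ductal, 4 of 5 fibroblast, 3 of 9 leukocyte and 3 of 8 alveolar type II markers were called higher. Hepatocyte markers summed to 139 to 1003 TPM in A3B pancreases and 56.8 to 68.6 TPM in controls, and none was called. Islet markers summed to 3758 to 13293 TPM in A3B pancreases and 3434 to 3509 TPM in controls, and 2 of 7 were called lower with TMM. Adipocyte markers summed to 170.2 to 1185 TPM and 56.8 to 681 TPM. The part of these cell markers in the pancreas results was not tested.

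**Figure D4:**
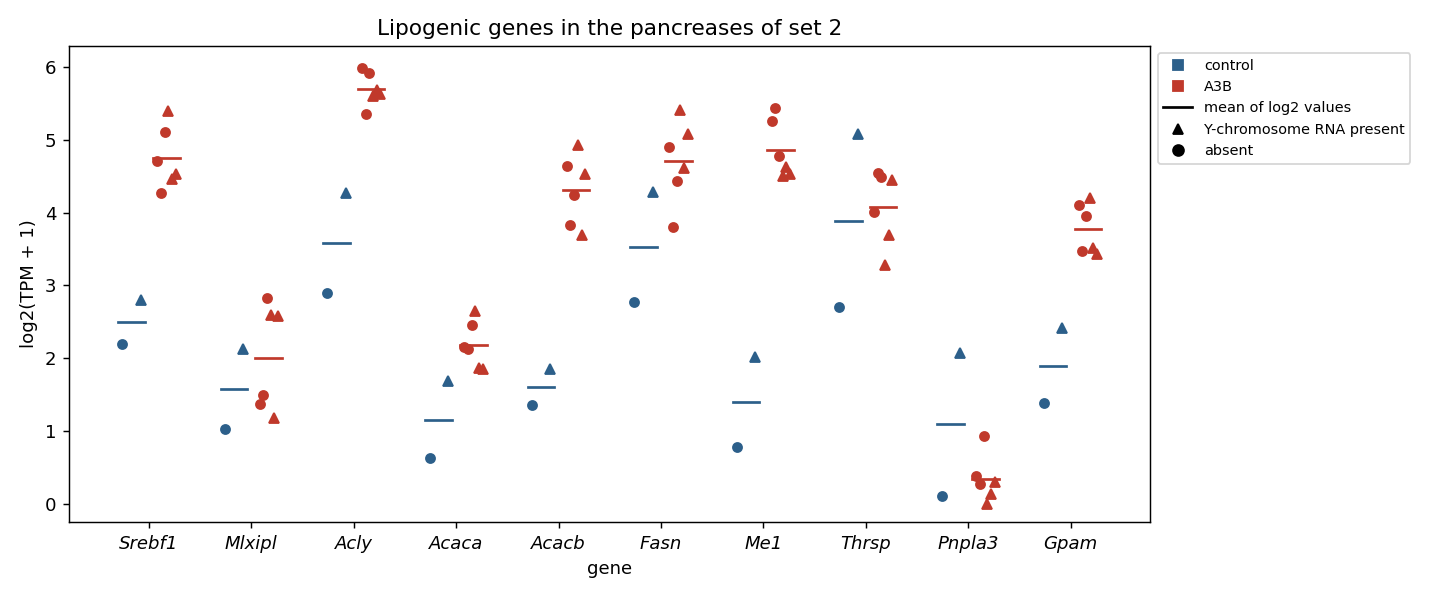
Level of each gene in the pancreases of set 2, as log2(TPM + 1); each point is 1 pancreas (blue, 2 controls; red, 6 A3B mice), triangles mark pancreases with Y-chromosome RNA and lines the means of the log2 values. Red points lie above both blue points for Srebf1, Acly, Acaca, Acacb, Me1 and Gpam, on a scale where 70.8% of all genes do so.

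The difference between the organs was tested in 1 fit over all 16 samples of set 2, as the A3B effect in pancreas minus that in liver. It was positive for 9 of the 10 genes and passed the test for 3, Srebf1, Me1 and Acly, where 6.87% of all 19908 genes tested were called positive. Srebf1 differed by 4.18 on the log2 scale (SE 0.55, edgeR adjusted p = 0.000885), Me1 by 3.50 (SE 0.54, edgeR adjusted p = 0.00209) and Acly by 1.98 (SE 0.60, edgeR adjusted p = 0.0422). Fasn differed by 2.87 (SE 0.91) with an edgeR adjusted p of 0.0511. With the mouse as a replicate block, since 7 mice gave both organs, 3 genes again passed: Srebf1, Me1 and Acacb (adjusted p = 0.0468), while Acly did not (adjusted p = 0.0872). In that fit 5.68% of all genes tested were called positive. Srebf1 passed in 9 of 9 fits that left out 1 mouse. Me1 lost its call without control 45 (3.14, adjusted p = 0.0696), and Acly lost its call without any of mice 44, 49, 53, 125, 137, 45 and 168. Without control 45 the count was 1, where 0.234% of all genes tested were called positive. Mlxipl, Acaca, Thrsp, Pnpla3 and Gpam were not called, with differences of 0.61, 0.96, 1.70, -2.68 and 0.80.

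**Figure D5:**
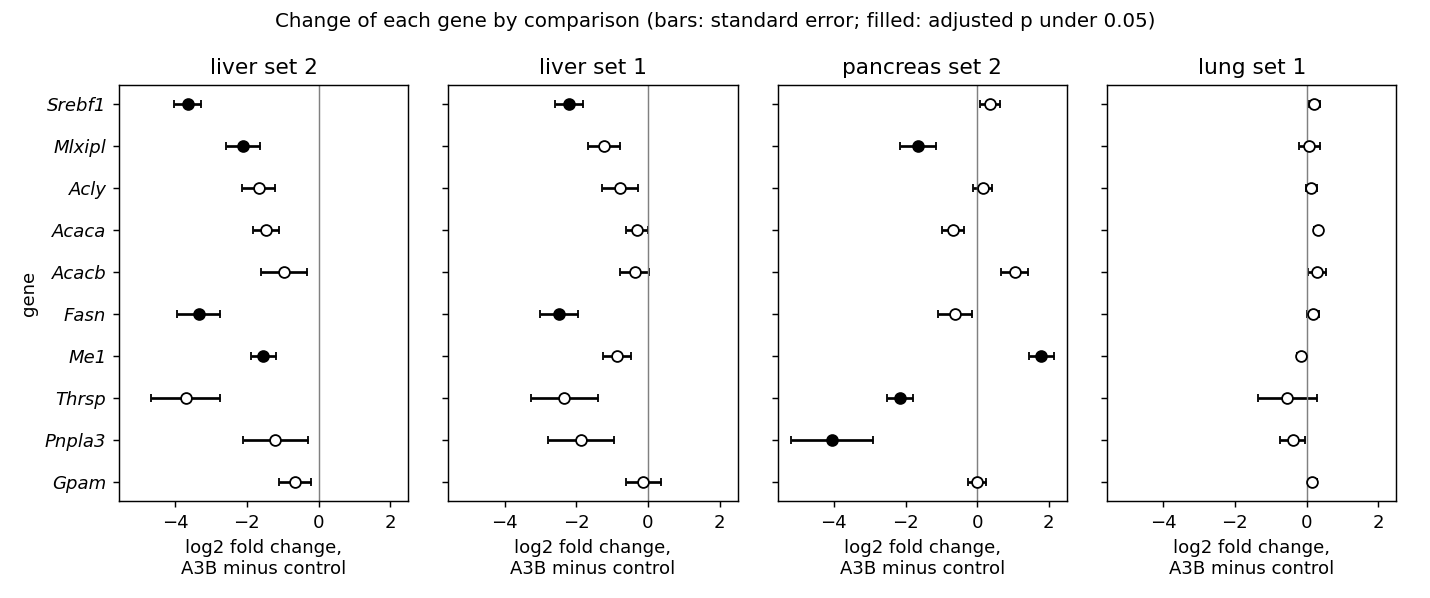
Log2 fold change of each gene, A3B minus control, in the 4 comparisons; points are the fitted values (edgeR with TMM for set 2, limma on log2(TPM + 1) for set 1), bars the standard errors, and filled points those with an adjusted p under 0.05. All points lie left of 0 in both liver panels, with Srebf1 and Fasn filled in both, while the lung points lie near 0 and none is filled.

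Within the controls of set 2, 9 of the 10 genes had a higher level in TPM, which is per length, in both livers than in both pancreases, and no test was made of this. Pnpla3 was the exception, at 9.80 and 0.942 TPM in control livers 45 and 168 and 0.0814 and 3.20 TPM in control pancreases 45 and 168. The share of all genes that were higher in both livers was not counted, so the 9 are not a result particular to this pathway. The 10 most abundant genes took 59.7% to 62.4% of the counts in control pancreases and 22.2% to 24.5% in control livers. The part of this in the levels was not tested. Thrsp was at 881 and 167 TPM in control livers 45 and 168 and 5.49 and 32.9 TPM in control pancreases 45 and 168, Mlxipl at 174 and 92.9 TPM and 1.04 and 3.39 TPM, and Srebf1 at 225 and 69.4 TPM and 3.57 and 5.93 TPM. In A3B mice these distances were smaller for Srebf1, which lay between 8.71 and 26.8 TPM in livers and between 18.3 and 41.0 TPM in pancreases. In each of the 5 A3B mice that gave both organs Fasn was higher in the pancreas than in the liver, at 28.8 and 26.6 TPM (44), 20.6 and 10.6 TPM (49), 41.4 and 29.3 TPM (125), 23.3 and 10.2 TPM (137) and 32.9 and 11.3 TPM (153), and in both controls it was lower in the pancreas. These are levels in TPM, on which 70.8% of all genes tested were above both controls in every A3B pancreas. With TMM the Fasn fold change in A3B pancreas was -0.62 and was not called, and its sign turned with the scale.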

How the data were processed

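The 10 genes and all gene lists were chosen with earlier results of these data known. RNA was sequenced from stranded TruSeq libraries. For set 2 the authors deposited, per transcript, kallisto (0.46.1) estimated counts and TPM against mm10, with no later normalization of the counts. For set 1 the authors deposited TPM per gene, made with GenomicAlignments and GenomicFeatures from files named as sorted and free of duplicates, and depth there is unknown. Transcripts were joined to genes with GENCODE M21, and estimated counts were summed and rounded. In set 2 genes were filtered (filterByExpr), scaled by TMM and tested with edgeR 4.0.16 (robust quasi-likelihood). In set 1 a gene needed a mean of 1 TPM or more to be tested with limma 3.58.1 on log2(TPM + 1). P-values were adjusted by Benjamini-Hochberg over all genes tested, at a threshold of 0.05. Isoform shares were compared by exact permutation. All 10 genes passed the filters of the main tests, and Pnpla3 in pancreas fell below the mean of 1 TPM used for limma in the alternatives.

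Text names all 10 genes in each comparison, up to 3 called genes with the smallest p per list and direction, and the 5 genes most like the 10 over the livers. Alternatives were DESeq2 1.42.0, scaling by totals, no filter, limma on TPM, a pseudocount of 0.1, a Y-linked covariate, a replicate block and leaving out samples. Mouse numbers in set 2 pair liver and pancreas because both organs came from the same animal. The deviations of the 2 organs from their group means correlated between -0.02 and 0.29 over 16737 genes in the 5 A3B mice. The functions were tested on simulated data. Sequences came from RefSeq promoter windows, which matched 10 of 10 genes. Other tools were R 4.3.3 and Python with scipy.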

Additional observations from a re-analysis of the deposited data

Results flagged for a closer look

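Srebf1, Me1 and Acly had an A3B effect that differed between pancreas and liver in the interaction test over 16 samples, with a log2 effect in pancreas minus that in liver of 4.18, 3.50 and 1.98. Srebf1 was lower in A3B livers (-3.65) and had a log2 fold change of 0.36 in A3B pancreases, which did not pass the test. Me1 was lower in A3B livers (-1.54) and higher in A3B pancreases (1.79). Acly passed in neither organ alone, with -1.66 in liver and 0.15 in pancreas, and its difference was 1.73 with the mouse as a replicate block and no longer passed (edgeR adjusted p = 0.0872). Scaled by totals, 7 of the 10 genes differed between the organs, where 39.4% of all genes tested were called positive. Dixon's test for a sample far from the others was run on log2(TPM + 1) and the Srebf1 1c share in 22 groups of 6 A3B values, and none was past its limit. On TPM itself, a scale added after the data were seen, 1 of 20 groups was: Pnpla3 in A3B pancreas 49, at 0.914 TPM, stood above the other 5 A3B pancreases. Chance gives about 1 in 20 such groups.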

How the results depend on the processing

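In the livers of set 2 the count of members called lower was 4, and it was 7 with DESeq2, 3 with totals, 2 with limma on log2(TPM + 1), 2 with the Y-linked covariate and 1 to 6 when 1 liver was left out. The share of all genes tested that was called lower moved too, from 2.41% to 6.31% with DESeq2, 1.39% with totals, 1.57% with limma, 2.25% with the covariate, 5.54% without A3B liver 49 and 0.346% without control 45. Me1 lost its call with totals, with limma (adjusted p = 0.104) and with the covariate. Acacb moved between -1.69 and 0.13 and Pnpla3 between -2.16 and 1.29 when 1 liver was left out, positive only without control 45. The 1c share of Srebf1 differed by -36.4 to -27.0 points when 1 liver was left out in the liver, and by -2.78 to 11.0 points in the pancreas.

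In the pancreas the counts were 1 higher and 3 lower. They were 2 higher with DESeq2 (19.3% of all genes tested were higher) and 2 higher with no filter (12.2% higher). With totals they were 6 higher and 0 lower (70.5% of all genes tested were higher). With limma on log2(TPM + 1) they were 7 higher and 0 lower (83.9% higher), where Pnpla3 was below the filter and 9 members were tested. With 1 pancreas left out they ranged from 1 to 2 higher and from 1 to 4 lower. With totals the sign turned for Mlxipl (0.48), Acaca (1.40), Fasn (1.40) and Gpam (2.17). With limma on TPM it turned for Mlxipl (0.43), Acaca (1.03), Fasn (1.18), Thrsp (0.19) and Gpam (1.88). Gpam was 0.03 with no filter and -0.12 to 0.05 with 1 pancreas left out, and Acly was -0.04 without A3B pancreases 44 and 137.

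For pancreas minus liver 3 members passed, where 6.87% of all genes tested were positive. The count was 3 with the replicate block (5.68%), 4 with DESeq2 (9.26%) and 7 with totals (39.4%). It was 2 to 3 with 1 A3B mouse left out, where 4.01% to 8.25% of all genes tested were positive. Over the fits with any 1 mouse left out, controls included, Mlxipl ranged from -0.05 to 1.29, Acaca from -0.19 to 1.97, Thrsp from -0.27 to 3.30 and Pnpla3 from -6.06 to 0.37. In the livers of set 1 the count of 2 became 0 with no filter on low values, where 0.0782% of all genes tested were called lower, and 0 to 3 with 1 liver left out, with Gpam from -0.38 to 0.31. In lung the count stayed 0, with Mlxipl from -0.17 to 0.33, Acly from -0.01 to 0.28 and Thrsp from -1.38 to 0.14. The cause of these shifts was not tested. Depth limits Pnpla3 most, on 0 to 141 estimated counts in the pancreas.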
